A study of Homo sapiens with 6 samples.

Results

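The genes described here encode 10 transcription factors and cofactors of heart and muscle development: HAND1, HAND2, ISL1, NKX2-5, MEF2A, MEF2C, MEF2D, HOPX, SRF and MYOCD. The set was drawn up with earlier results of these data known, and its probe sets were then taken by symbol. Every probe set annotated to one of these symbols alone was taken, which gave 21 of the 54613 probe sets tested, and all 10 genes had at least 1 among 19775 genes. Gene expression had been measured on 6 one-colour arrays of RNA from the H9 cell line, long-established human embryonic stem cells (hESC). On 3 arrays the RNA came from undifferentiated H9 cells. On the other 3 it came from H9 cells that had been cultured in Stemline II medium to which FGF2, VEGF, BMP4 and activin A were added. These were sorted by flow cytometry on day 3.5 as CD326-negative, CD56-positive mesodermal progenitors. All arrays therefore carried cells of 1 line, and the sort cannot be told apart from the differentiation, since day 3.5 cells are represented by the sorted fraction alone.

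Heart muscle forms from lateral plate mesoderm through a set of transcription factors that bind DNA together. The basic helix-loop-helix proteins HAND1 and HAND2 act as dimers in lateral mesoderm, the limb and the ventricles, and HAND1 is also known from trophoblast and the extraembryonic mesoderm. ISL1, a LIM homeodomain protein, marks the second heart field, and NKX2-5, a homeodomain protein, marks cells committed to the heart. MEF2 proteins and serum response factor (SRF) share a MADS domain and switch on genes of the contractile apparatus. Myocardin (MYOCD) is a coactivator of SRF in heart and smooth muscle, and HOPX is a small homeodomain protein that does not bind DNA itself and tempers SRF activity.

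The labels were checked on marker genes. Of 9 mesoderm genes, 9 rose (median log2 change 4.09), among them APLNR by 7.61, EOMES by 5.38 and MESP1 by 5.22. Of 7 measured stem cell genes, 7 fell (median -2.33), with PRDM14 at -4.85, NANOG at -4.17 and SOX2 at -3.52. NCAM1 (CD56) and EPCAM (CD326) are on these lists and had been used for the sort, and the median of the stem cell genes is the value of EPCAM itself. LIN28A was not called with median centring of the arrays (-0.25), and its change turned to 0.17 with arrays scaled on hybridization controls. Median intensities were 30.98 to 31.24 on the progenitor arrays and 33.1 to 36.1 on the hESC arrays. Progenitor arrays 2 and 3 were close to each other, with 7 genes more than 2-fold apart, against 208 and 180 genes between array 1 and each of them and 46 to 146 between hESC arrays. Changes of the 10 genes that rest on progenitor array 1 are given with and without it.

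Levels are deposited intensities on a linear scale. Changes are differences of mean log2(intensity + 16) after quantile normalization, progenitor minus hESC, from limma with Benjamini-Hochberg adjustment over all probe sets, and a probe set was called at an adjusted p under 0.05. A gene is represented by its brightest probe set. Of the 10 genes, 7 rose: HAND1, HAND2, ISL1, NKX2-5, MEF2D, HOPX and MYOCD. Of all genes, 25.3% were called higher. None of the 10 fell, where 20.0% of all genes did, and none was lower at an unadjusted p under 0.05 (0 of 10). MEF2A, MEF2C and SRF did not pass. At 2-fold or more, 5 of the 10 rose (HAND1, ISL1, NKX2-5, HOPX and MYOCD), against 9.38% of all genes. In 9 of the 10, all but SRF, the 3 progenitor arrays lay above the 3 hESC arrays, which held for 32.0% of all genes. The median change was 1.72 for the 10 genes and 0.04 for all genes.

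Counted by probe set, 10 of 21 rose, against 20.3% of all probe sets. No probe set fell, against 20.0% of all probe sets, and 1, of MEF2A, was lower at an unadjusted p under 0.05. Without progenitor array 1, 8 genes and 11 probe sets rose and none fell. The gene added was MEF2C. In bulk RNA a larger share of expressing cells and more RNA per cell cannot be told apart. Whether the 3 arrays of a group stem from different cultures is not said in the labels, and p-values then reflect the spread of these samples alone, possibly a technical one.

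**Figure D1:**
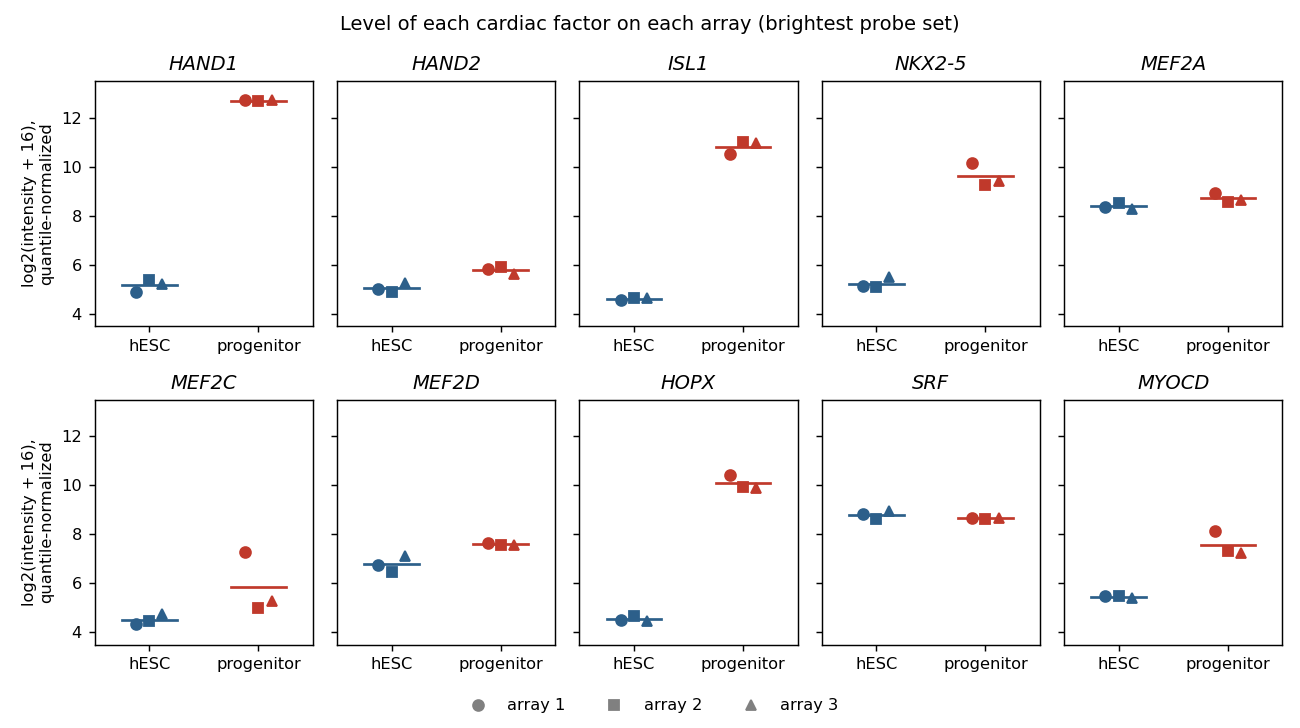
Levels of the 10 genes on each of the 6 arrays as log2(intensity + 16) after quantile normalization, 1 panel per gene, blue for hESC and red for progenitors, with lines at the group means and a marker shape for each array number. HAND1, ISL1, NKX2-5 and HOPX stood far above their hESC levels on every progenitor array, SRF overlapped between groups, and MEF2C was high on progenitor array 1. Heights compare arrays within a panel, not genes with each other.

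HAND1 had the largest increase of the 10. It was at 6791, 6514 and 6744 on progenitor arrays 1 to 3, and at 14.2, 28.4 and 21.3 on the hESC arrays. All 3 progenitor arrays were at nearly the same high level, and all 3 hESC arrays were below the median intensity of their array. The log2 change was 7.54 (SE 0.14, n = 3 per group, limma adjusted p = 3.12e-07), with a 95% interval of 7.22 to 7.86. It ranked 2 among the increases of all 19775 genes. The change was 8.34 with a pseudocount of 1 and 6.32 with 64. The difference between progenitor array 1 and the mean of the other progenitor arrays was 0.02 on the log2 scale.

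HAND2, the paralog of HAND1, rose far less. It was at 38.7, 42.6 and 30.8 in the progenitors and at 16.9, 14.6 and 22.3 in hESC. The groups did not overlap, but the progenitor levels were themselves near the median intensity of their arrays. The log2 change was 0.74 (SE 0.13, n = 3 per group, limma adjusted p = 0.00366), with a 95% interval of 0.43 to 1.06 that lies below the interval of HAND1. Its size depended on the pseudocount, at 1.17 with a pseudocount of 1 and 0.35 with 64, and it passed the test with both. HAND2-AS1, a long noncoding RNA transcribed from the opposite strand next to HAND2, rose on both of its probe sets. The brighter one was at 46.0, 30.2 and 28.3 in the progenitors and at 3.96, 3.18 and 5.93 in hESC, a log2 change of 1.37 (SE 0.14). Its other probe set rose by 0.80 (SE 0.21), at 27.9, 8.61 and 12.1 against 3.21, 1.24 and 2.87. All these levels were below the median intensity of their array. On this probe set progenitor array 1 was above the mean of the other progenitor arrays by 0.76 on the log2 scale.

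The promoter windows of the HAND genes are shown because the paralogs differed so much in response. They run from 250 bases before to 50 bases after the start site, 5′ to 3′, from RefSeq on GRCh38.p14. Capitals mark matches on either strand. The TCF/LEF site searched was CTTTGAT. The GATA site was AGATAA. The T-box element was AGGTGT. The NKX2-5 site was TNAAGTG. MEF2 sites and CArG boxes, the sites of SRF, were searched too.
HAND1, chr5:154478178-154478477, minus strand: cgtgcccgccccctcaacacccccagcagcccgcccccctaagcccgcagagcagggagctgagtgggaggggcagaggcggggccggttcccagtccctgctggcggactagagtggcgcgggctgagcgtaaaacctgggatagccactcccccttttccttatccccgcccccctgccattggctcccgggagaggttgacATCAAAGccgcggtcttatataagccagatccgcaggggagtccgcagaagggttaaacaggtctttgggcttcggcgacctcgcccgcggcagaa
HAND2, chr4:173530180-173530479, minus strand: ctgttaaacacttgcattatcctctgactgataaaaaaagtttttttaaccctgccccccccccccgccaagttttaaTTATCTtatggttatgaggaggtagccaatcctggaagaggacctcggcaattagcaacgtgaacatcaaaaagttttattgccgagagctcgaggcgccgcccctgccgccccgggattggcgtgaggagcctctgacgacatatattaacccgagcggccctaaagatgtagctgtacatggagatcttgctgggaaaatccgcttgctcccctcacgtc
The HAND1 window holds 1 TCF/LEF match, which begins at position -46 from the start site on the reverse strand, and no match to the other sites marked. The HAND2 window holds 1 GATA match at -172, also on the reverse strand. A TCF/LEF match was found in 2.62% and a GATA match in 10.3% of 35116 RefSeq promoter windows of the same length. E-boxes (CANNTG), the sites that HAND dimers and related proteins bind, were also searched and are not capitalized. None lies in the HAND1 window and 1 in the HAND2 window, and 68.7% of all windows have at least 1. A match describes letters in a window and does not show binding.

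ISL1 and NKX2-5 both rose strongly, but their arrays differed in opposite ways. ISL1 was at 1404, 1988 and 1913 in the progenitors and at 8.20, 9.69 and 8.82 in hESC. The hESC arrays were close together at a low level, and progenitor array 1 was the lowest of its group. The log2 change was 6.21 (SE 0.14, n = 3 per group, limma adjusted p = 5.71e-07), rank 11 among the increases of all genes. As the hESC arrays were near the floor, its size depended on the pseudocount, at 7.57 with 1 and 4.68 with 64. Without progenitor array 1 it was 6.37.
The ISL1 window, chr5:51383198-51383497, plus strand, is shown because ISL1 had the second largest increase of the 10.
ISL1: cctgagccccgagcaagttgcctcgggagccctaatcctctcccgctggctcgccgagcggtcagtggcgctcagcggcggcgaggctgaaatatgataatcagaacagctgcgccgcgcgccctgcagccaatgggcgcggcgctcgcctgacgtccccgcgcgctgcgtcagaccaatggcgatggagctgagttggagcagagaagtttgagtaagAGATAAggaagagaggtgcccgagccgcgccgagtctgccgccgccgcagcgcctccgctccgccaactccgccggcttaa
It holds 1 GATA match, at -31, and 1 E-box, and no match to the other sites.

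NKX2-5 was at 1099, 593 and 655 in the progenitors and at 19.7, 19.8 and 29.3 in hESC. Progenitor array 1 was the highest, and the lowest progenitor array was still far above every hESC array. The log2 change was 4.38 (SE 0.24, n = 3 per group, limma adjusted p = 1.54e-05), and it was 4.10 without progenitor array 1. It ranked 87 among the increases of all genes. The change was 5.10 with a pseudocount of 1 and 3.28 with 64. No promoter window of NKX2-5 is shown.

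HOPX was measured by 3 probe sets that gave very different answers. The brightest was at 1310, 926 and 915 in the progenitors and at 7.18, 10.04 and 6.41 in hESC, which put every progenitor array far above every hESC array. Its log2 change was 5.52 (SE 0.15, n = 3 per group, limma adjusted p = 1.01e-06), rank 30 among the increases. With hESC levels this low the size depended on the pseudocount, at 6.99 with 1 and 3.98 with 64. The other probe sets were near the floor of the array in both groups. The brighter of them was at 11.7, 7.65 and 9.76 in the progenitors and at 8.93, 9.40 and 15.5 in hESC, and the groups overlapped. Their log2 changes were -0.03 and -0.04 and did not pass. The difference in change between the brightest probe set and each of the others was 5.55 and 5.56. An exact permutation test gave p = 0.1 for both, two-sided, the smallest that 3 arrays against 3 allow, and 0.183 after adjustment over 11 pairs of probe sets. The rise of HOPX thus rests on 1 probe set. When probe sets with the suffixes _s, _x and _a, which can match several transcripts, were left out, HOPX had no increase (-0.028, limma adjusted p = 0.901).

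**Figure D2:**
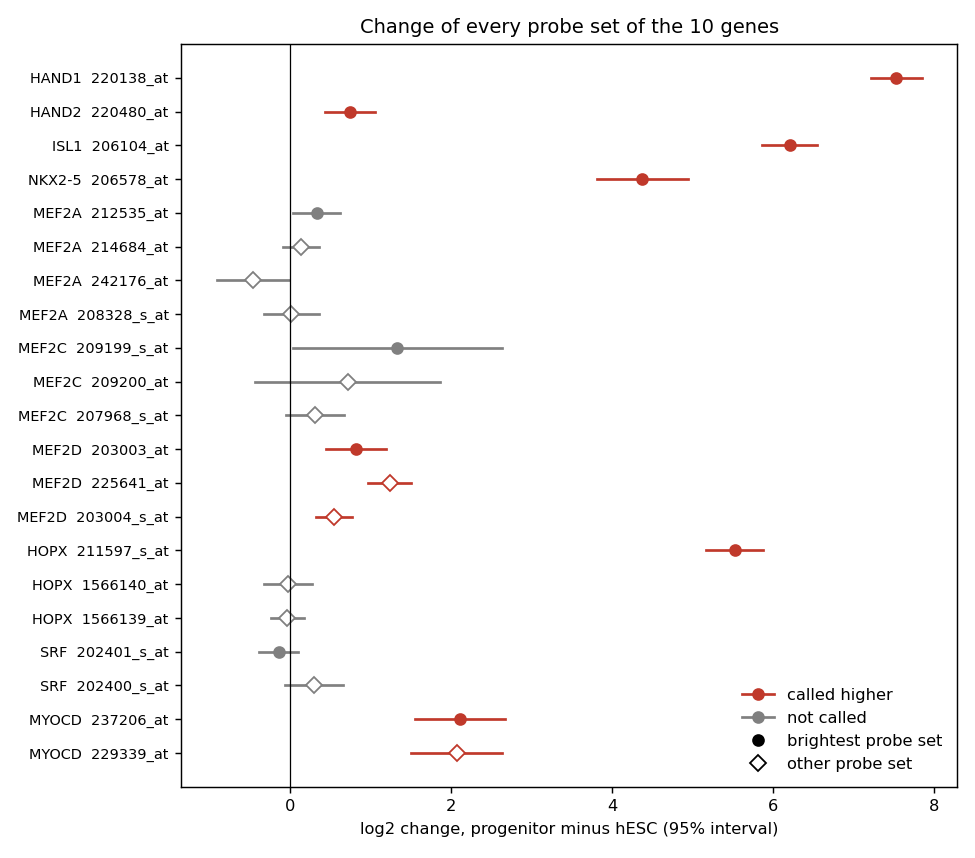
Log2 change, progenitor minus hESC, of each of the 21 probe sets of the 10 genes with its 95% interval from limma, filled circles for the brightest probe set of a gene, open diamonds for the others, red where called higher and grey where not called. Probe sets of MYOCD and MEF2D moved the same way, whereas those of HOPX split between 5.52 and about 0, and those of MEF2A lay on both sides of 0.

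The MEF2 genes differed from each other. MEF2D rose on each of its 3 probe sets. The brightest was at 192, 173 and 172 in the progenitors and at 93.6, 76.9 and 118 in hESC, without overlap, and its log2 change was 0.82 (SE 0.16, n = 3 per group, limma adjusted p = 0.00556). The second probe set rose by 1.23 (SE 0.11) and the third by 0.54 (SE 0.09). On all of them the progenitor arrays lay close together and above every hESC array. Without hESC array 1 or 3, the second probe set was the brightest, so that the gene's value became 1.22 or 1.34.

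MEF2A, widely expressed and known from muscle and neurons, did not pass on any of its 4 probe sets. The brightest was at 479, 363 and 383 in the progenitors and at 308, 350 and 285 in hESC. The groups did not overlap, but the gap was narrow, and the log2 change of 0.33 (95% interval 0.03 to 0.62) had an adjusted p = 0.0811 in limma. It passed with median centring (0.46), with scaling on hybridization controls (0.86) and with array weights (0.27). Scaling on hybridization controls moved the median change of all genes from 0.04 to 0.32. The mean of its probe sets changed by 0.0024. The third brightest probe set pointed the other way. It was at 83.5, 126 and 123 in the progenitors and at 145, 198 and 131 in hESC, and its log2 change of -0.47 (SE 0.19) did not pass, at an adjusted p = 0.0961 in limma. The remaining MEF2A probe sets changed by 0.14 and 0.01, and their groups overlapped. The difference in change between the brightest probe set and this one was 0.79, with an exact permutation p = 0.1 and 0.183 after adjustment over the 11 pairs.

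MEF2C, needed for the second heart field and also expressed in endothelial cells, was high on 1 progenitor array. Its brightest probe set was at 141 on progenitor array 1, at 15.0 and 21.5 on arrays 2 and 3, and at 4.16, 6.28 and 11.2 in hESC. Arrays 2 and 3 lay only just above the highest hESC array. The log2 change was 1.33 (SE 0.55, n = 3 per group) with a 95% interval of 0.04 to 2.63, and it did not pass in limma (adjusted p = 0.0976). The change without progenitor array 1 was 0.63 and passed (SE 0.17, adjusted p = 0.0318), since the spread of the group fell with its mean. Without progenitor array 2 it was 1.76 and passed as well (adjusted p = 0.0496). The second probe set showed the same pattern, at 81.0 on progenitor array 1 against 8.62 and 10.4, with 7.12, 13.2 and 7.44 in hESC. Without array 1 its change was 0.08 (adjusted p = 0.691), and its groups overlapped. The third probe set was at 9.75, 1.22 and 6.04 in the progenitors and below 2 in hESC, near the floor, and changed by 0.31 without passing. On progenitor arrays 2 and 3 only the brightest of the 3 probe sets was thus above hESC beyond the test's threshold.

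SRF was at a middle level in both groups. The brightest probe set was at 400, 377 and 393 in the progenitors and at 435, 380 and 471 in hESC, and the groups overlapped. Its log2 change was -0.15 (SE 0.10, n = 3 per group, limma adjusted p = 0.325), with a 95% interval of -0.39 to 0.10. The other probe set changed by 0.30, with an interval of -0.06 to 0.66. The interval of the brightest probe set leaves out a change of 2-fold in either direction on this scale. With the mean of both probe sets the change was 0.076, and with scaling on hybridization controls 0.38, neither of which passed.

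The start of SRF is shown because the window carries sites for its own product, and that of MEF2A because it carries a MEF2 site. Capitals mark matches as above.
SRF, chr6:43171019-43171318, plus strand: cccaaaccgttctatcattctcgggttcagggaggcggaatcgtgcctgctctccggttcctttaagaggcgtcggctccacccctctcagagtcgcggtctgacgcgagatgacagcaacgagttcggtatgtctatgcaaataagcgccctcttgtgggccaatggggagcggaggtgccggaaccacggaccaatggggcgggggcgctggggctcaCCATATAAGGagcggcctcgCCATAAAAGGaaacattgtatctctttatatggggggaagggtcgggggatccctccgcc
MEF2A, chr15:99565734-99566033, plus strand: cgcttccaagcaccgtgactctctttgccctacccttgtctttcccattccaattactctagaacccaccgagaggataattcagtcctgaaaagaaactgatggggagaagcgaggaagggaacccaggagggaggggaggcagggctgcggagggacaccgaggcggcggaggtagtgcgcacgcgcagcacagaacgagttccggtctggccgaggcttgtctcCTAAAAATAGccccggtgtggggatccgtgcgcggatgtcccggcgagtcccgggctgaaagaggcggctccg
The SRF window holds CArG boxes at -30 (CCATATAAGG) and at -10 (CCATAAAAGG). A CArG box was found in 1.29% of all RefSeq promoter windows, and in 1 of the 18 windows listed for 8 of these genes. This MEF2A window, 1 of 3 listed for the gene, has a MEF2 site at -23 (CTAAAAATAG). MEF2 sites were found in 2.99% of all windows and in 2 of the 18, the other being 1 of 7 windows of MEF2C. T-box elements were found in 11.4% of all windows and in 4 of the 18 (3 of MEF2C and 1 of SRF), and an NKX2-5 site in 10.2% of all windows and in 1 of the 18, of MEF2C, where it overlaps an E-box. The window of MEF2D and both windows of HOPX had none of the capitalized sites.

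MYOCD rose on both probe sets by nearly the same amount. The brighter one was at 277, 144 and 131 in the progenitors and at 30.6, 30.9 and 26.6 in hESC, and the other at 227, 109 and 119 against 18.0, 24.9 and 27.7. On both, progenitor array 1 was clearly the highest, and the groups did not overlap. The log2 changes were 2.11 (SE 0.24, n = 3 per group, limma adjusted p = 3.87e-04) and 2.07 (SE 0.24), and they differed by 0.04 (exact permutation p = 0.9). They were 1.80 and 1.78 without progenitor array 1, both past the threshold. MYOCD ranked 575 among the increases of all genes.

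Progenitor array 1 differed from arrays 2 and 3 in several of these genes. It was higher than their mean in 9 of the 10, whereas 48.7% of all genes were higher there. It was higher by more than 0.5 on the log2 scale for MEF2C (2.13), MYOCD (0.88) and NKX2-5 (0.80), which is 3 of 10 genes against 4.18% of all genes. HOPX was higher there by 0.49, ISL1 was lower by 0.48 (-0.48), and HAND1, HAND2 and SRF differed by under 0.1. Markers of endothelial and blood cells moved with them. Of 14 measured, 14 were higher on array 1, by a median of 1.21, and their summed intensity was 6952 there against 2228 and 2416 on arrays 2 and 3, and 732 to 783 in hESC. CDH5, the adhesion molecule of endothelial junctions, was at 1012 on array 1 against 102 and 121, ERG, an endothelial transcription factor, at 271 against 37.5 and 45.8, and TAL1, a factor of early blood and endothelium, at 642 against 90.4 and 114. PECAM1 and EMCN, also endothelial, differed by 0.05 and 0.02. The value of PECAM1 rests on 1 probe set. When any 1 hESC array was left out another became the brightest, and its change was 1.07 to 1.17 and was not called. The summed intensities of some other lists differed on array 1 as well. The sum of endoderm markers was 2620 there against 1314 and 1262, that of skeletal muscle markers 201 against 109 and 100, and that of trophoblast and amnion markers 752 against 1302 and 1300. Such sums are set by the brighter genes of a list. Gene by gene, 5 of 8 endoderm markers were higher there (median 0.12), and only 1 by more than 0.5. For skeletal muscle 7 of 8 were higher (median 0.22), and for trophoblast and amnion 5 of 11 (median -0.01). ERG, TAL1 and EMCN were chosen after their values were seen. Their part in the levels of MEF2C, MYOCD and NKX2-5 was not tested.

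**Figure D3:**
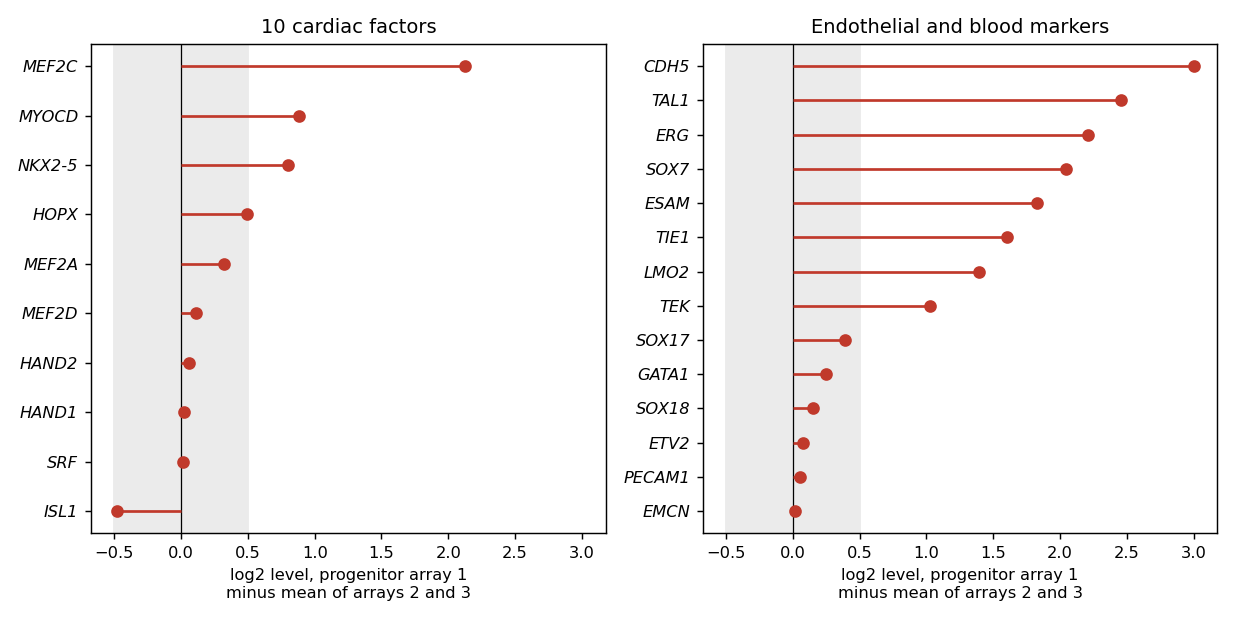
Log2 level on progenitor array 1 minus the mean of progenitor arrays 2 and 3, for the 10 genes on the left and for 14 endothelial and blood markers on the right, with grey bands from -0.5 to 0.5. MEF2C stood out among the 10 with 2.13, and CDH5, TAL1, ERG and SOX7 among the markers with 2.05 to 3.00.

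Genes listed as acting with these factors in heart formation mostly rose. Of 27 measured partner genes, 18 rose, 2 fell and 7 did not pass, and the median change was 2.38. Of all genes 25.3% rose and 20.0% fell. The list was chosen with earlier results of these data known. GATA6, a zinc finger factor that binds with NKX2-5 and HAND proteins, rose by 6.63, the T-box factor TBX3 by 6.13 and the ligand BMP4, also an ingredient of the medium, by 6.11. GATA4 and GATA5 rose by 4.89 and 4.35, and SMARCD3, a chromatin remodelling subunit of early heart cells, by 2.99, all chosen after their values were seen. Not every heart factor on the list rose. IRX3 and IRX5 rose by 5.50 and 2.24. TBX5 fell by 0.43 and IRX4, a ventricular factor, by 0.55, both at intensities under 42 on every array. With scaling on hybridization controls neither was called (-0.19 and -0.35). Without progenitor array 1, TBX5 did not pass (-0.33), and IRX4 did not pass without progenitor array 2 (-0.48) or 3 (-0.50) or without hESC array 1 (-0.37) or 3 (-0.58). TBX5 also did not pass without hESC array 1 (-0.37) or 2 (-0.43) or with the replicate block (adjusted p = 0.0599). TBX20 changed by 0.11 and TBX18 by 0.39 without passing, and IRX3, IRX5, TBX20 and TBX18 were also chosen after their values were seen. FOXH1, a SMAD partner, was the brightest gene that did not pass (0.09), and was called at 0.54 under scaling on hybridization controls.

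Among 11 dimer partners and modifiers of HAND proteins, 9 rose, none fell (0 of 11, also at an unadjusted p under 0.05 in limma) and 2 did not pass, with a median of 0.98. For this list and the next, the shares of all genes were 25.3% that rose and 20.0% that fell. TWIST1, a related helix-loop-helix factor, rose by 3.77, ZFPM2 (FOG2), a cofactor of GATA4 that also binds HAND proteins, by 3.06, and ID4, an inhibitor of E proteins, by 3.02. ID4 was lower on progenitor array 1, at 523 against 1242 and 1260. TCF3, a ubiquitous E protein, changed by -0.06, and by 0.39 with scaling on hybridization controls, where it passed. Of 13 genes of the LIM complex in which ISL1 acts, 6 rose, 2 fell and 5 did not pass (median 0.44). LHX1, another LIM homeodomain factor, rose by 5.74, the LIM-only protein LMO2 by 3.97 and the LIM-binding adaptor LDB2 by 2.76. ISL2, the paralog of ISL1, fell by 0.70, and LMO3 fell by 0.60. LMO3 did not pass without any 1 of progenitor array 2 or 3 and hESC array 1 or 2 (-0.52, -0.51, -0.59 and -0.56), nor with scaling on hybridization controls (-0.38). LMO4 did not pass at 0.24, and passed with that scaling at 0.69.

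Of 23 cofactors and regulators of SRF and MEF2, 8 rose, 6 fell and 9 did not pass (median 0.10), where 25.3% of all genes rose and 20.0% fell. With scaling on hybridization controls 16 rose and 2 fell, where 44.6% of all genes rose and 9.54% fell. PRKD1, a kinase that drives class IIa histone deacetylases out of the nucleus, rose by 2.45. NFATC1, a calcineurin-dependent factor of the endocardium, rose by 1.95, and ELK3, a ternary complex factor that binds with SRF, by 1.33. The class IIa deacetylases, which repress MEF2, did not move as one. HDAC9 and HDAC7 fell by 2.01 and 0.87 and HDAC4 fell by 0.35, while HDAC5 rose by 0.39. HDAC4 and HDAC5 were chosen after their values were seen. FHL2, a LIM protein that antagonizes SRF, fell by 1.54. HDAC9 was at 22.7, 20.3 and 22.8 in the progenitors and at 130, 124 and 171 in hESC, without overlap. Scaling on hybridization controls left HDAC7 at -0.36, which was not called. The nuclear receptor coactivator NCOA2 did not pass (0.05), and passed with that scaling at 0.55.

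Of 24 smooth muscle, cytoskeletal and immediate-early targets of SRF and myocardin, 5 rose, 8 fell and 11 did not pass, with a median of -0.07. The share that rose was near the 25.3% of all genes, and the share that fell was above the 20.0% of all genes. With scaling on hybridization controls 11 rose and 4 fell, near the 44.6% of all genes for those that rose. The share that fell was again above that of all genes, 9.54%. The median under that scaling was 0.32, the same as for all genes. FOS and EGR1, immediate-early factors, rose by 2.93 and 2.30, and smoothelin (SMTN) by 1.09. FOS was lower on progenitor array 1, at 149 against 383 and 420, and EGR1 higher, at 655 against 335 and 324. SYNPO2, an actin-binding protein, fell by 1.26, TAGLN (SM22) by 1.23 and the matricellular protein CCN1 by 1.15. ACTB did not pass (0.06), and passed at 0.61 with scaling on hybridization controls.

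Among 25 measured cardiomyocyte genes, with a median of 0.30, there were 11 that rose and 3 that fell. Of all genes 25.3% rose and 20.0% fell. With the replicate number as a block 8 rose and 3 fell, where 23.2% of all genes rose and 18.2% fell. When progenitor array 2 was left out, 7 rose and 2 fell, where 20.9% of all genes rose and 16.8% fell. The atrial light chains MYL4 and MYL7 rose most. MYL4 was at 1714, 1683 and 1665 in the progenitors and at 46.6, 49.6 and 59.3 in hESC, a log2 change of 4.74 (SE 0.11), and MYL7 rose by 4.02 (SE 0.14). NPPA, the atrial natriuretic peptide gene and a target of NKX2-5, was at 62.0, 117 and 123 against 13.4, 15.3 and 18.2, and rose by 1.89. Progenitor array 1, the highest in NKX2-5, was the lowest progenitor array in NPPA and MYL7, a pairing made with these values known. Not all of the list went this way. On array 1, 8 of the 25 exceeded their mean over progenitor arrays 2 and 3, and 17 fell short of it (median difference -0.13). Among all genes, 48.7% exceeded that mean. Whether these levels are linked to NKX2-5 was not tested. The slow troponin I gene TNNI1 rose by 1.79, cardiac actin (ACTC1) by 1.34 and troponin C (TNNC1) by 1.12. MYH7 changed by -0.06, MYL2 by 0.14 and PLN by -0.27, none past the test and all under 20 on every array, and these 6 genes were chosen after their values were seen. RYR2, the calcium release channel, fell by 1.78. The calcium pump ATP2A2 fell by 0.56, but was not called at -0.11 under scaling on hybridization controls. NEBL fell by 0.36, did not pass with several of the alternatives, and turned to 0.15 under that scaling. HCN4, a pacemaker channel of early heart cells, did not pass (-0.18).

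**Figure D4:**
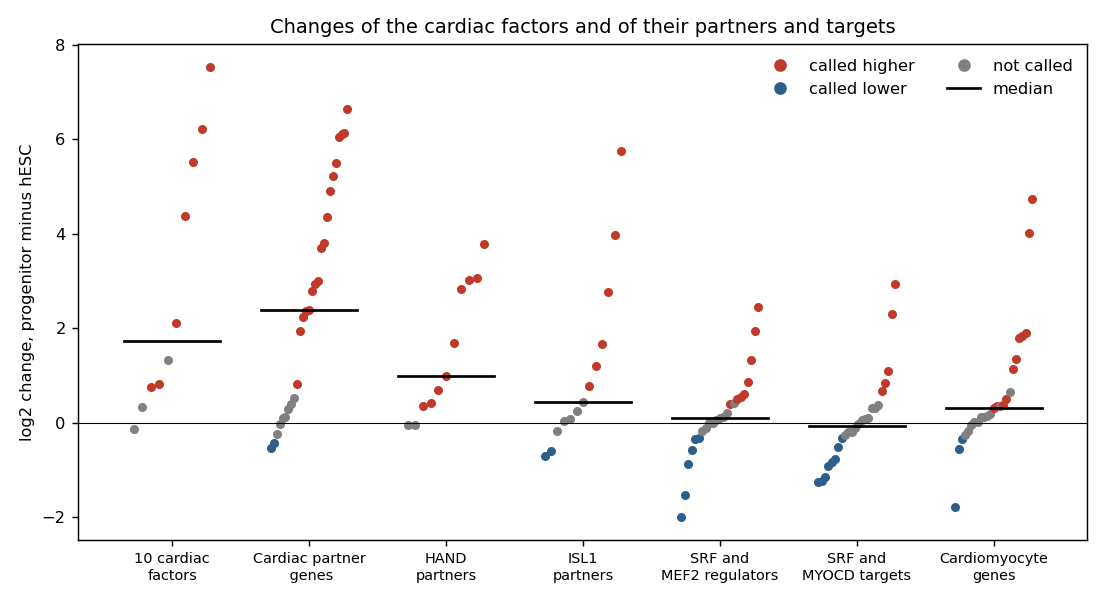
Log2 changes, progenitor minus hESC, of the 10 genes and of the measured genes of 6 lists of their partners, regulators and targets, 1 point per gene ordered within each list, red where called higher, blue where called lower and grey where not called, with black lines at the medians. The partner genes of heart formation had a median of 2.38, while the SRF and MYOCD targets lay on both sides of 0 with a median of -0.07.

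Markers of other cells in which these factors act were also counted, beside the 25.3% of all genes that rose and the 20.0% that fell. Of 14 endothelial and blood markers 8 rose, LMO2 by 3.97, CDH5 by 3.85 and SOX7 by 3.62. These became 3.49, 2.85 and 2.92 when progenitor array 1 was left out, and the list's median went from 1.77 to 1.00. None fell in limma, though 1, GATA1, was lower at an unadjusted p under 0.05 (-0.40). Without progenitor array 1, 8 rose and 1, TIE1, fell (-0.68), where 23.4% of all genes rose and 18.5% fell. Of 8 skeletal muscle genes 2 rose, PAX7 by 1.16 and the creatine kinase CKM by 1.19, a share near the 25.3% of all genes, and none fell (0 of 8 at an unadjusted p under 0.05 in limma). PAX3 did not pass at 0.67, and was called without progenitor array 3 (0.91) and under scaling on hybridization controls (0.90). Their summed intensity was 100 to 201 in the progenitors. Of 11 trophoblast and amnion genes 4 rose and 1 fell, with TFAP2A, an AP-2 factor, up by 4.19 and IGFBP3 by 2.33. GABRP rose by 1.04 and XAGE2 fell by 0.44, and neither was called without progenitor array 3 (0.85 and -0.43). XAGE2 was also not called under scaling on hybridization controls (-0.14). GABRP was also not called without progenitor array 2 (0.90) or hESC array 1 (1.08) or 2 (0.95). ERVW-1 did not pass at 0.04. The placental markers CGA, GCM1, ELF5 and HSD3B1, chosen after their values were seen, changed by 0.11, 0.17, 0.01 and -0.07 without passing. They were picked from the 6 genes of the list that did not pass. On every array 3 of the 11 genes were under 10, near the floor, where an unchanged value says little. Of 12 motor neuron and neural crest genes, where ISL1 is also known, 1 rose (PHOX2A, 2.78) and 2 fell (FOXD3, -1.92, and LHX4, -1.08). The share that fell was near the 20.0% of all genes. TUBB3, the brightest not called, was at 0.01 and was called at 0.55 under scaling on hybridization controls. Of 8 endoderm genes 4 rose and 1 fell, with CER1 up by 4.58, SOX17 by 2.36 and CXCR4 by 1.80. Without any 1 progenitor array another probe set of SOX17 was the brightest, which changed by 0.91 to 0.96 and was called each time. These values do not show how the 2.36 of the first probe set depends on an array. AFP fell by 0.58 and was not called under scaling on hybridization controls (-0.04), and APOA1 did not pass at -0.47.

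The genes whose levels over the 6 arrays were most like those of the members that rose at least 2-fold were found by the Euclidean distance between log2 levels centred on each gene's mean. For HAND1 they were APLNR, the apelin receptor, LUM and BMPER, at distances of 0.56, 0.71 and 0.74. For ISL1 they were BMP4, LEF1 and WLS, at 0.30, 0.40 and 0.43. For NKX2-5 they were HEY1, RSPO3 and DLK1, at 0.24, 0.35 and 0.37, and each was higher on progenitor array 1 by 0.64 to 1.10, which the choice by likeness favours. For HOPX they were MEIS2, RGS13 and IFI16, at 0.27, 0.36 and 0.40. For MYOCD they were LRRTM1, IGFBP5 and MAMLD1, at 0.19, 0.26 and 0.27. Without progenitor array 1 the brightest probe set of IGFBP5 was another one, which changed by -0.10. With 6 arrays in 2 groups, such distances reflect mainly the size of the change between the groups.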

How the data were processed

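The authors' deposited values are probe set intensities on a linear scale, 1 table for 6 arrays. For summarisation, background correction and scaling, the method is not given in the sources used here. A share of 2.15% of values equalled 1, near the floor, and 19 were below it. Of 54675 probe sets, 62 controls were left out. Of the rest, 41091 had 1 gene symbol, 1801 several and 11721 none, and 41037 symbols were updated by gene identifier (RefSeq, GRCh38.p14). Genes were named through probe sets with 1 symbol. Array medians spanned 0.150 as log2(intensity + 16), so arrays were quantile-normalized. The fit used limma 3.58.1 (lmFit and eBayes, R 4.3.3) with 2 groups of 3 arrays and no covariate, and was tested on simulated data. This scale understates changes of dim genes, and 3 arrays per group limit the precision.

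Members and 14 lists were chosen with earlier results of these data known. Named are all members, the 3 nearest genes of each member called at 2-fold or more, and per list up to 3 called increases, 3 called decreases and the brightest gene not called. Alternatives were pseudocounts of 1 and 64, no normalization, median centring, scaling on hybridization controls, no dim probe sets (30% or 50%), other probe set choices, other variance estimates, a replicate block, progenitor arrays 2 and 3 averaged, an adjusted p under 0.01 and leaving out each array. Those for the lists were chosen after seeing the data. Figures used matplotlib 3.10.9 (Python 3.11.15).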

Additional observations from a re-analysis of the deposited data

How the results depend on the processing

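Directions and calls of HAND1, ISL1, NKX2-5, MEF2D and MYOCD were the same in 21 of 21 alternatives, and those of HAND2 in all 20 that could be run, since it was not among the brighter 50% of probe sets. The count of genes that rose was 6 to 9 over the alternatives against 7, and that of probe sets 8 to 15 against 10, with 15 under scaling on hybridization controls. No gene or probe set among them was called lower under any of these. Leaving out 1 array gave 7 to 8 genes and 10 to 12 probe sets. HOPX reversed, to -0.028, without probe sets that have a suffix. SRF reversed with scaling on hybridization controls (0.38) and with the mean of its probe sets (0.076), and had no probe set left without suffixed ones. MEF2A was called in 3 alternatives and MEF2C in 4, among them a trended, robust variance (adjusted p = 0.0433). Over the alternatives MEF2C ranged from 0.63 to 2.35. The scalings changed the split of all genes from 5010 higher and 3961 lower to 8811 and 1886 with hybridization controls, where the median was 0.32, and to 5645 and 3526 with median centring, where it was 0.11. Under hybridization controls 10 of 13 LIM complex genes, 5 of 8 skeletal, 5 of 12 motor neuron and neural crest and 5 of 7 neighbouring genes rose. With quantile normalization 6, 2, 1 and 3 did. Of all genes 44.6% rose under hybridization controls, against 25.3%, and the motor neuron and neural crest count is near that 44.6%.

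Same-numbered arrays of the groups did not deviate together, with correlations of -0.03, 0.06 and -0.06, and 1 of 3 progenitor arrays correlated best with its own number, so the numbers were not taken as pairs. With the replicate block 7 genes and 10 probe sets rose and none fell, as without it, and 4579 genes in all rose and 3601 fell. Dim probe sets limit what can be seen of HAND2, MEF2C in hESC and sarcomere genes such as MYH6, MYH7, MYL2 and MYL3. These lie near or below the median intensity of the arrays.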

Other observations

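Genes next to the 10 members on their chromosomes, by RefSeq on GRCh38.p14, were set beside them after their values were seen. Of 19 measured protein-coding neighbours, 9 rose, 4 fell and 6 did not pass, with a median change of 0.28. Of all genes 25.3% rose and 20.0% fell. FBXO8, an F-box gene beside HAND2, rose by 2.17, more than HAND2 itself on this scale, and SCRG1 on the other side rose by 0.55. SAP30L, a subunit gene of histone deacetylase complexes beside HAND1, rose by 1.19 on its brightest probe set. Its other probe sets rose by 0.96, 1.38 and 0.67 or did not pass, at -0.21 and 0.05. LARP1 on the other side of HAND1 fell by 0.36. STC2, a secreted glycoprotein gene next to NKX2-5, fell by 3.91 where NKX2-5 rose by 4.38, and BNIP1 on the other side did not pass at 0.31 on its brightest probe set, but rose on its other probe sets by 0.76 and 0.86. LRRC28 and LYSMD4, on the sides of MEF2A, rose by 1.41 and fell by 0.86. Of the 7 measured genes on the list of neighbouring and antisense RNAs, 3 rose, none fell (0 of 7, or 1 of 7 at an unadjusted p under 0.05, from limma) and 4 did not pass. MEF2C-AS1, which overlaps the MEF2C locus, was at 4.98, 9.66 and 16.9 in the progenitors and at 27.9, 22.8 and 18.8 in hESC. All these levels were below the median intensity of their array. The lowest, near the floor, was on progenitor array 1, where MEF2C was highest. The log2 change of MEF2C-AS1 was -0.51 and did not pass in limma (adjusted p = 0.058). It passed without normalization between arrays (-0.58) and without progenitor array 3 (-0.69).

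The 3 genes with levels most like those of MEF2C over the 6 arrays, chosen after their values were seen, were ADGRL4, an endothelial adhesion receptor, TM4SF1, a surface protein of endothelial cells, and ESAM, an endothelial adhesion molecule. They were higher on progenitor array 1 than on the mean of the others by 2.40, 1.88 and 1.83, which their choice by likeness to MEF2C (2.13) fixes. ISL1 was lower on that array by 0.48 (-0.48), and the differences of IGFBP3, FOS and ID4 were -1.92, -1.39 and -1.30.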
